A study of Mus musculus with 88 samples.

Results

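The cytochrome P450 genes of families 1 to 3 were followed through the tissues of mice that had received partial-body irradiation. Their members were all array probes whose gene symbol begins with Cyp1, Cyp2 or Cyp3 directly followed by a letter, which gave 62 probes of 45 genes among 25697 probes of 16593 genes. Of these genes, 3 belonged to family 1, 36 to family 2 and 6 to family 3. All groups were females of the nude strain CAnN.Cg-Foxn1nu/Crl on a BALB/c background, aged 4 months, which lack a thymus and most T cells. In group A, the collum with the thyroid received a single dose of 2 Gy (4 MV photons), in group B the thorax and abdomen, and in group C the collum, thorax and abdomen, with 3 mice in each group. All groups, the 5 controls included, were anesthetized, and the controls were not irradiated. The drugs named in the methods were Ketaminol and Domitor, with Antisedan as antidote. Tissues were taken after 24 h, and total RNA of liver, lungs, kidney cortex, kidney medulla, spleen and thyroid was hybridized to Illumina MouseRef-8 beadchips, 88 arrays in all. The lungs and the abdominal organs lay outside the field in group A and inside it in groups B and C.

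P450 enzymes of these families are heme-containing monooxygenases of the endoplasmic reticulum that insert an oxygen atom into drugs, pollutants, steroids and fatty acids. They take electrons from cytochrome P450 oxidoreductase and, for some reactions, from cytochrome b5. Hepatocytes hold most of them, the club cells of the airways and the proximal tubule of the kidney carry sets of their own, and many members are switched on by ligand-sensing receptors: the dioxin receptor for family 1, and the nuclear receptors CAR and PXR for much of Cyp2b, Cyp2c and Cyp3a.

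Promoter sequences of RefSeq (GRCm38.p6) were matched by Entrez gene identifier for 39 of the 45 genes, in 42 windows. No window was matched for Cyp2d12, Cyp2d13, Cyp2d22, Cyp2d34, Cyp2g1 and Cyp2u1. The 130 bases before the start site are shown for genes on which the tissue pattern turned: Cyp3a11 and Cyp2c70 (detected in liver alone among liver, lungs and kidney), Cyp3a41a (not detected), Cyp2a5 (detected in all 4 of these tissues), Cyp2b10 and Cyp2f2 (highest in lungs), Cyp2j11 (kidney) and Cyp1b1 (kidney and lungs). Capitals mark matches to TATAAA (the letters of a core promoter element, marked wherever they occur in the window), CAAAGTCC (part of a site of the liver factor HNF4) and GCGTG (core of the dioxin response element), on either strand.
Cyp3a11 (chr5:145879855-145879984, minus strand): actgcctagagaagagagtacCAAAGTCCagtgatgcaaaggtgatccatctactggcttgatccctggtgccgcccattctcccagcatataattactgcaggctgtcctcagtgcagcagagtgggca
Cyp3a41a (chr5:145720137-145720266, minus strand): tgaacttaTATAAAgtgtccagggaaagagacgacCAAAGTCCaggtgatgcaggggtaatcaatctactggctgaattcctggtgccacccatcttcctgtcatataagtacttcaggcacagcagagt
Cyp2c70 (chr19:40187287-40187416, minus strand): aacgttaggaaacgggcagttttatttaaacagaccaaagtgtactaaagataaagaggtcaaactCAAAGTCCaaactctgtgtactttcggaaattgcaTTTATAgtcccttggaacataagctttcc
Cyp2a5 (chr7:26835209-26835338, plus strand): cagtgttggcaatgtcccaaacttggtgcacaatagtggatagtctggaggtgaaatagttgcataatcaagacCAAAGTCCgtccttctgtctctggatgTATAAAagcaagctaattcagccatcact
Cyp2b10 (chr7:25897528-25897657, plus strand): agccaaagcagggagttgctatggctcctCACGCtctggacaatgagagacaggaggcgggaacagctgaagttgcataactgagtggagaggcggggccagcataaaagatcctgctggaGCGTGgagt
Cyp2f2 (chr7:27119825-27119954, plus strand): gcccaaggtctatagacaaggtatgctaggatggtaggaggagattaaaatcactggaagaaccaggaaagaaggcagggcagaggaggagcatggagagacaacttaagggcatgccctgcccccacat
Cyp2j11 (chr4:96348681-96348810, minus strand): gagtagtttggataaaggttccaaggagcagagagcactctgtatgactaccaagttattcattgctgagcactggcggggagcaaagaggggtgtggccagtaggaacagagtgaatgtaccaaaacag
Cyp1b1 (chr17:79715062-79715191, minus strand): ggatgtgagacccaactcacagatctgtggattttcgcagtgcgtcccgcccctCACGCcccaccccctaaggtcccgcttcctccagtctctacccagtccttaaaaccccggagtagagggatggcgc

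In the 250 bases before the start, TATAAA was found in 47.6% of the members' windows, beside 12.4% of all 32851 promoter windows. CAAAGTCC was found in 19% against 1.2%, in 8 genes (Cyp2a5, Cyp2c40, Cyp2c65, Cyp2c67, Cyp2c70, Cyp3a11, Cyp3a16 and Cyp3a41a). It stood in 4 of the 24 matched genes detected in liver and in 4 of the 15 not detected there. A gene whose probes gave no detected signal may still be expressed, so this split cannot relate the letters to expression in liver. GCGTG was found in 14.3% against 28.2%, GTTAAT (part of a site of HNF1) in 7.14% against 6.43%, and CCAAT in 31% against 33.8%. Within the members' windows no match overlapped a match to another motif. Many members are recent duplicates with similar promoters, so these windows are not independent of each other, and a match is a description of letters.

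All levels are log2 intensities after background correction and quantile normalization. An intensity was called detected where the deposited detection p-value was below 0.01, and a gene was counted in a tissue where a probe was detected on at least 3 arrays. Levels of different probes are not set against each other, since each binds with its own strength. Between 36.51% and 40.27% of all probes were detected on each liver array and between 45.95% and 50.28% on each lung array. These ranges were 43.58% to 47.58% in kidney cortex and 41.75% to 46.25% in kidney medulla. The labelled tissues were set against their defining markers. The summed hepatocyte markers reached 16.9 to 17.03 in control livers, where 6 of 8 were detected and Fgb and Tat were not, against 8.48 to 9.71 in control lungs. Club cell markers summed to 15.29 to 15.64 in control lungs. All 7 proximal tubule markers on the array, of 8 listed, were detected in both kidney parts. They summed to 16.12 to 16.33 in control cortex and 15.65 to 16.19 in control medulla. Club cell markers also reached 13.86 to 14.31 in control medulla, where Scgb1a1 and Scgb3a1 were not detected, and the collecting duct markers, at 11.28 to 11.58 in control cortex and 11.51 to 11.88 in control medulla, did not exceed the 11.63 to 11.94 of control lungs. Heart muscle markers varied between 8.91 and 11.73 in control lungs. Control thyroids went against their label in part: thyroid follicle markers ranged from background to a high level, at 5.51 to 14.65, and skeletal muscle markers stood at 16.14 to 16.28.

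Liver held 28 of the 45 genes (41 probes), lungs 11 (15 probes), kidney cortex 14 (20 probes), kidney medulla 13 (19 probes), the samples labelled thyroid, muscle included, 8 (11 probes) and spleen 5 (5 probes). In liver alone, among liver, lungs and kidney, 15 genes were detected: Cyp1a2, Cyp2a12, Cyp2b9, Cyp2b13, Cyp2c29, Cyp2c37, Cyp2c39, Cyp2c50, Cyp2c55, Cyp2c67, Cyp2c70, Cyp2d13, Cyp2g1, Cyp3a11 and Cyp3a25. Liver and both kidney parts shared 4 Cyp2d genes (Cyp2d9, Cyp2d10, Cyp2d12 and Cyp2d26), and liver and lungs shared Cyp2b10 and Cyp2b23. Another 6 genes were detected in liver, lungs, cortex and medulla (Cyp2a5, Cyp2d22, Cyp2d40, Cyp2e1, Cyp2j9 and Cyp3a13). Cyp2j11 was detected in kidney alone, Cyp1b1 and Cyp2s1 in lungs and kidney without liver, and Cyp2f2 in liver, lungs and cortex. The probes of the other 14 genes were detected in none of them by this rule, among these Cyp1a1, the best known target of the dioxin receptor, and Cyp2c40, Cyp3a16, Cyp3a41a and Cyp3a44, known as female-predominant in mouse liver. Each of these genes was read by only 1 or 2 probes, so a lack of detection does not show that the gene was not expressed. At the edge of the rule, Cyp2d40 in lungs, Cyp2f2 in cortex and Cyp3a13 in medulla were detected on exactly 3 arrays, while Cyp2b10, Cyp2b23 and Cyp2f2 were detected on 1 or 2 arrays of medulla.

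**Figure D1:**
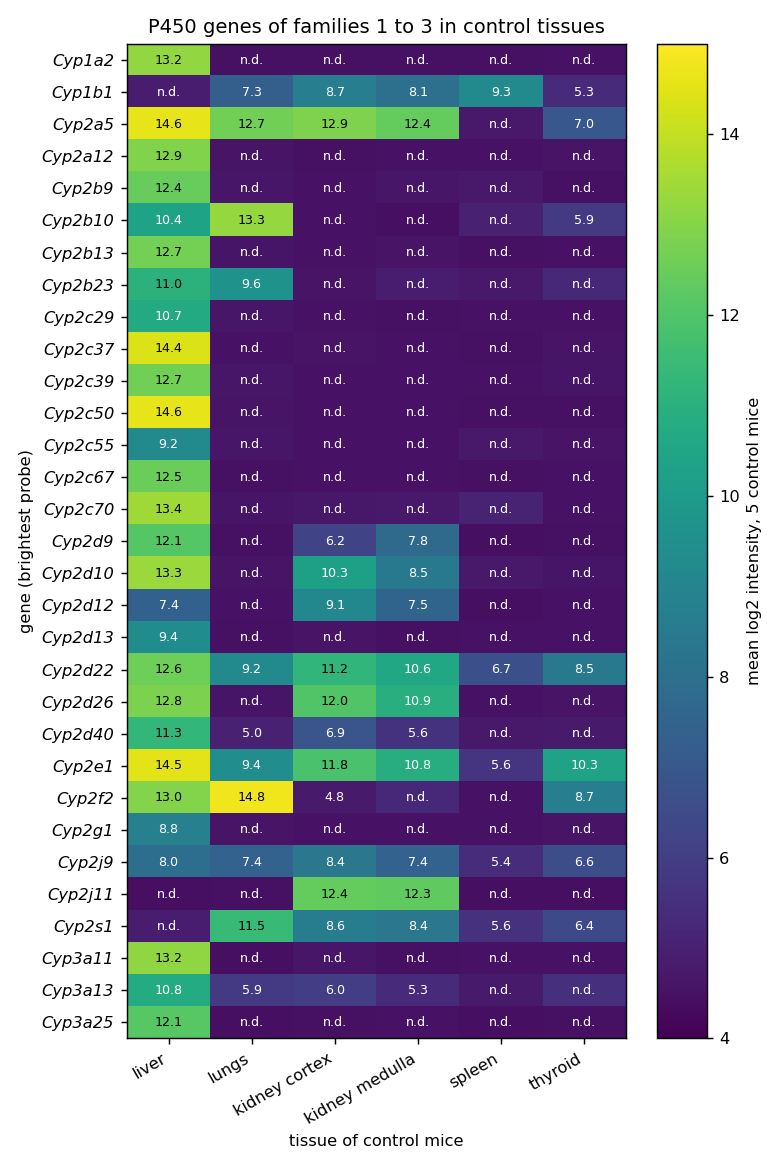
Mean log2 intensity of the detected P450 genes (rows) in the control mice (n = 5) across the tissues (columns), with 1 probe per gene, the brightest over liver, lungs and kidney (for Cyp2c37, ILMN_2691060). Cells marked n.d. are tissues where the gene was not detected. Of the 31 genes detected in liver, lungs or kidney, 15 are seen in liver alone among these, with Cyp2f2 and Cyp2b10 highest in lungs (14.77 and 13.25) and Cyp2j11 in kidney cortex (12.40).

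The tissue pattern was first examined in controls, with all arrays of the 6 tissues normalized together. A member that passed the detection filter only through the tissue where it was bright had to differ between tissues, so the counts here describe the pattern. Tested with limma over 13917 probes, at an adjusted p below 0.01 and a log2 difference of at least 0.58, 39 of 46 member probes were higher and 5 lower in liver than in kidney cortex (all probes called, 45.4%). Against lungs, 38 were higher and 5 lower in liver (all probes called, 61.4%). The median difference of the member probes was 4.76 for liver minus cortex and 5.29 for liver minus lungs, beside −0.05 and −0.08 over all probes tested.

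Among the liver genes, Cyp1a2, a dioxin receptor target that oxidizes caffeine, averaged 13.20 ± 0.18 in control livers (SD, n = 5). Its level was at least 212-fold higher in liver than in kidney cortex. Such a bound sets the mean of the bright tissue against the lowest signal of a detected probe in the other tissue, where the gene was not detected. Cyp2c37 (ILMN_2691059), which oxidizes arachidonic acid, averaged 14.60 ± 0.14 and was at least 560-fold higher than in cortex and at least 650-fold higher than in lungs. Cyp2c50 of the same gene cluster averaged 14.57 ± 0.09. These levels lie near the bright end of the arrays, where no probe exceeded 15.17 in liver, so differences there may be compressed. Cyp3a11, the main PXR-inducible drug oxidase of mouse liver, averaged 13.19 ± 0.85 and was at least 210-fold higher in liver than in cortex. Cyp2c70, which hydroxylates bile acids in mice, averaged 13.45 ± 0.28 and was at least 251-fold higher. The female-predominant Cyp2b13 and Cyp2b9 averaged 12.71 ± 0.16 and 12.44 ± 0.24 in control livers.

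No member was detected in lungs alone, and 3 had their highest level there among liver, lungs and kidney. Cyp2f2, the club cell P450 that activates naphthalene, averaged 12.97 ± 0.15 in liver and 14.77 ± 0.35 in lungs (log2 difference liver minus lungs −1.80, SE 0.175, limma adjusted p = 5.61e-09), and since the lung level lay near the bright end of the arrays this difference may be compressed. Cyp2b10, the standard CAR target, averaged 10.36 ± 0.25 in liver and 13.25 ± 0.23 in lungs (difference −2.89, SE 0.125, adjusted p = 5.16e-15), and it was at least 220-fold higher in lungs than in cortex. Both genes were therefore detected in liver, yet brighter in lungs. A second Cyp2b10 probe (ILMN_1215955) was dim, at 5.93 ± 0.49 in lungs, and not detected in liver. Cyp2s1, a P450 of epithelia outside the liver, averaged 11.45 ± 0.59 in lungs and 8.60 ± 0.12 in cortex (difference 2.85, SE 0.205, adjusted p = 5.29e-11). Between lungs and cortex, 5 member probes were higher and 13 lower in lungs (all probes called, 55.2%), and the median difference of the members was −0.08 beside 0.03 over all probes.

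In control cortex, Cyp2j11, Cyp2j9, Cyp2d12 and Cyp1b1 had their highest level among liver, lungs and kidney. Cyp2j11, of the epoxygenase subfamily Cyp2j, was not detected in liver or lungs and averaged 12.40 ± 0.21 in cortex, at least 75.3-fold above liver and at least 141-fold above lungs. Its mean of 12.30 ± 0.05 in medulla was close to that in cortex. Cyp2d12 was detected in liver at 7.42 ± 0.10 and was brighter in cortex at 9.12 ± 0.31 (difference liver minus cortex −1.70, SE 0.216, adjusted p = 5.47e-07). Cyp1b1, a dioxin receptor target of steroid-forming and stromal cells, averaged 8.69 ± 0.34 in cortex, 8.07 ± 0.20 in medulla and 7.32 ± 0.22 in lungs and was not detected in liver, with at least a 5.77-fold difference between cortex and liver. Spleen held Cyp1b1 at 9.28 ± 0.18.

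Cortex and medulla, dissected from frozen kidneys, differed at 9 of 46 member probes, 8 higher and 1 lower in cortex (all probes called, 10.9%). The 8 higher probes read Cyp2d10, Cyp2d12, Cyp2d22, Cyp2d26 (3 probes), Cyp2d40 and Cyp2j9. Cyp2d10 averaged 10.27 ± 0.19 in cortex and 8.46 ± 0.55 in medulla (difference 1.81, adjusted p = 2.63e-07), and Cyp2d12 9.12 ± 0.31 and 7.54 ± 0.65 (difference 1.58, adjusted p = 1.76e-05). Cyp2d9 went the other way, at 6.25 ± 1.07 in cortex and 7.81 ± 0.53 in medulla (difference −1.56, SE 0.351, adjusted p = 0.00249), a call lost without control medulla 2 (adjusted p = 0.0109) or with only both kidney parts in the fit (adjusted p = 0.0191). Cyp2e1, the ethanol- and acetone-oxidizing P450, averaged 11.83 ± 0.37 in cortex and 10.83 ± 0.57 in medulla without a call (adjusted p = 0.0549). The Cyp2d genes are close paralogs, and their probes may bind transcripts of each other. In tissue RNA, fewer cells of a type and less RNA per cell cannot be told apart. Without control medulla 2, only 5 of the 46 member probes passed.

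The order of tissues was then compared between irradiated mice and controls. Of 31 genes detected in liver, lungs or kidney, 30 had their highest group mean in the same tissue in groups A, B and C and in controls: 24 in liver, 3 in lungs (Cyp2b10, Cyp2f2 and Cyp2s1) and 3 in kidney cortex (Cyp2d12, Cyp2j9 and Cyp2j11). Among the liver genes, 15 were detected in liver alone of these tissues. The detection rule fixed liver as their highest tissue, so they say nothing on stability under irradiation. The narrowest margins among these 30 genes were 0.09 for Cyp2j11 (cortex over medulla) and 0.40 for Cyp2j9. The Cyp2j11 margin was below the SD of 0.21 among control cortices. The exception was Cyp1b1, which among these tissues was highest in medulla in groups A, B and C and in cortex in controls. Its smallest margin was 0.35, and its change of order was not tested.

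In none of the 12 comparisons of an irradiated group with controls, each tissue fitted alone with limma, did a P450 probe pass the study's thresholds (adjusted p below 0.01 and a log2 ratio of at least 0.58). The paper used other software and reported regulated transcripts at these thresholds in each of these tissues and groups. A probe without a call here may therefore be among the paper's calls. The same controls served groups A, B and C in each tissue, so the 12 comparisons are not independent. In liver, 41 member probes were tested, and 0%, 0% and 0.0188% of all 10623 probes passed in groups A, B and C. At an unadjusted p below 0.05, 4 member probes stood out in group A (1 higher, 3 lower) beside 8.04% of all probes, 1 in group B (lower) beside 5.31%, and 13 in group C (1 higher, 12 lower) beside 15.4%. These were 9.76%, 2.44% and 31.7% of the member probes. Of all probes in group C, 7.39% were lower at this p. The median log2 ratio of the member probes was 0.04, 0.01 and −0.29 in groups A, B and C, beside 0.01, 0.01 and 0.00 over all probes.

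**Figure D2:**
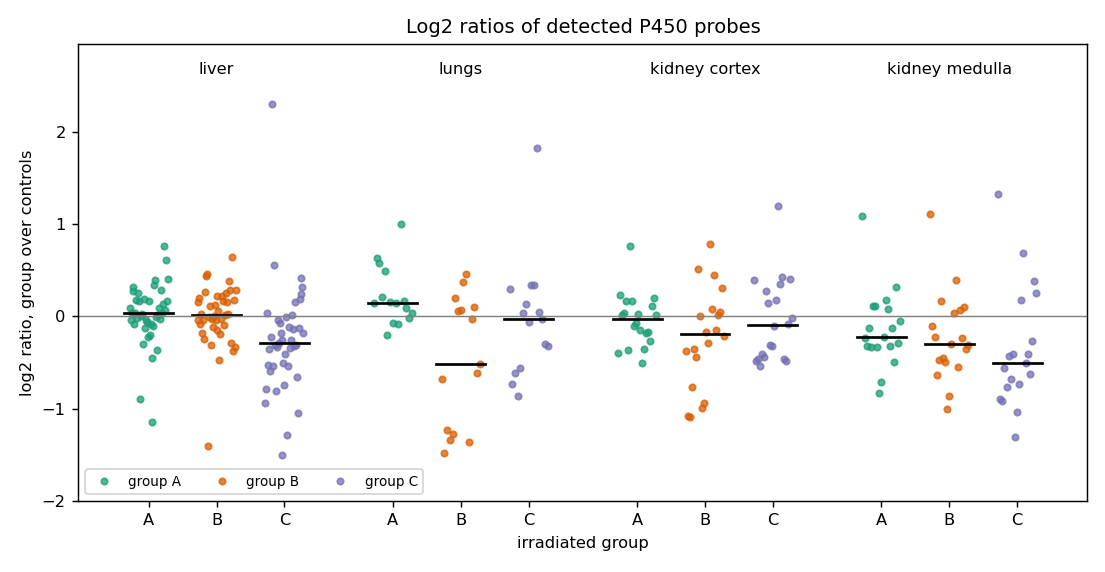
Log2 ratio of each tested P450 probe (points) in groups A, B and C relative to controls for liver, lungs, kidney cortex and kidney medulla, with bars at the medians. The medians lie furthest below 0 in lungs of group B (−0.52) and in kidney medulla of group C (−0.50), and no point passed the thresholds.

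Cyp2d12, a liver and kidney member of the Cyp2d cluster, had the smallest adjusted p in liver. Its levels were 5.81, 5.80 and 5.38 in group A, 6.24, 6.46 and 6.30 in those of group B and 5.82, 4.61 and 6.15 in those of group C, against 6.69, 6.79, 6.75, 6.93 and 6.90 in controls. Every irradiated liver lay below every control liver, whether or not the liver was in the field, and the gene was dim in this tissue. It was detected on 13 of the 16 liver arrays, with all 5 controls among them. Some levels of irradiated livers thus rest on signals that were not detected, and the ratios are uncertain in size. Of the member probes, 14.6%, 7.32% and 7.32% lay wholly outside the control range in livers of groups A, B and C, as did 8.4%, 6.64% and 6.55% of all probes. The log2 ratio was −1.15 in group A (SE 0.255, limma adjusted p = 0.19), −0.48 in group B (adjusted p = 0.957) and −1.28 in livers of group C (SE 0.255, adjusted p = 0.0994).

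Cyp2c29, a CAR-inducible epoxygenase, had levels of 10.14, 9.26 and 9.59 in group A, 9.01, 9.01 and 9.43 in those of group B and 9.23, 8.97 and 11.02 in those of group C, against 10.84, 10.26, 10.46, 10.70 and 10.50 in controls. These values are from ILMN_2769991, and a second Cyp2c29 probe, ILMN_1251150, was not detected in liver. With ILMN_2769991, all livers of groups A and B lay below the controls, and in group C 1 lay above them. Its log2 ratio was −0.89 in group A (adjusted p = 0.542), −1.41 in group B (SE 0.356, adjusted p = 0.493), with −0.81 for group C (adjusted p = 0.305).

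Cyp2b10 was the only member probe in liver of group C that was higher at an unadjusted p below 0.05. Its levels were 10.29, 10.06 and 10.52 in group A, 10.05, 9.86 and 9.67 in those of group B and 10.14, 14.61 and 12.48 in those of group C, against 9.86, 10.28, 10.57, 9.93 and 9.92 in controls. Replicates 2 and 3 of group C stood far above all other livers, and replicate 1 lay among the controls. The log2 ratio in group C was 2.30 (SE 0.627, adjusted p = 0.16). It was 1.20 without replicate 2 (adjusted p = 0.444) and 3.43 without replicate 1 (adjusted p = 0.00134), where it passed the thresholds. Cyp2b23, another Cyp2b gene, stood at 12.51 in replicate 2 of group C, against 10.48 to 11.24 in controls.

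**Figure D3:**
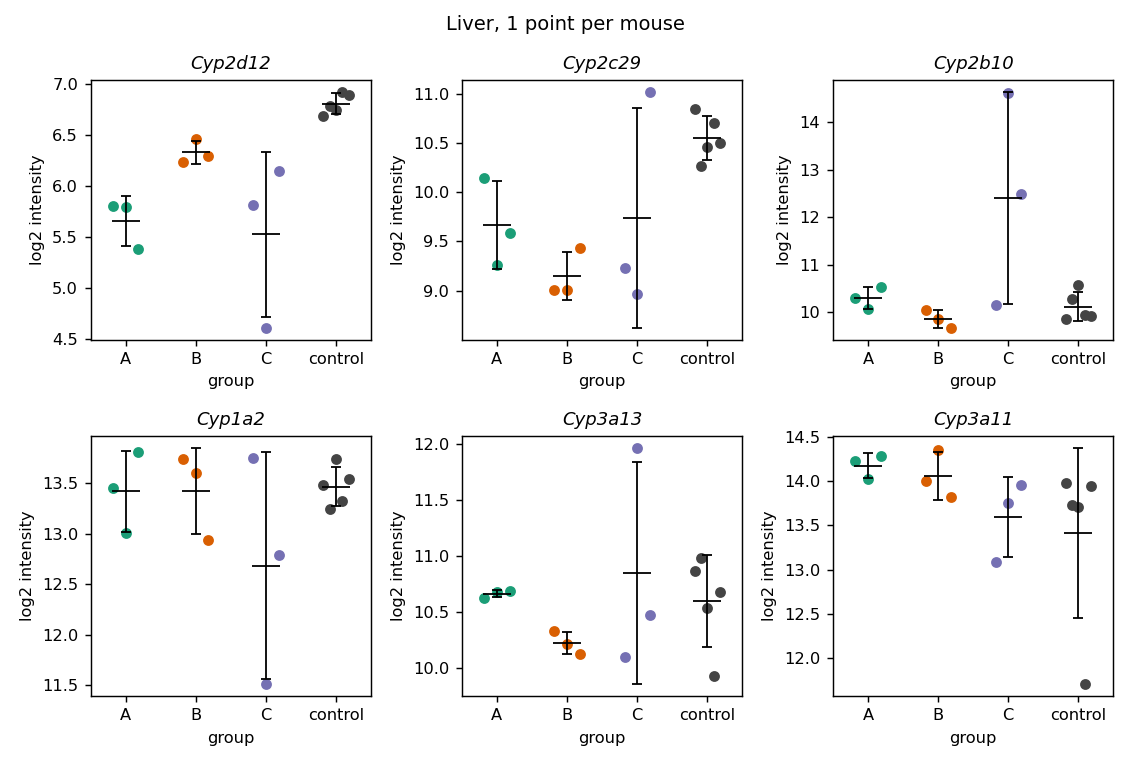
Log2 intensity in liver of each mouse (points) for 6 P450 genes in groups A, B, C and controls, with bars for mean ± SD (n = 3, 3, 3 and 5). Cyp2d12 is lower in each irradiated liver than in each control, and Cyp2b10 reaches 14.61 and 12.48 in replicates 2 and 3 of group C.

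Replicate 2 of group C differed from the other livers at further members. Cyp1a2 (ILMN_2795106) stood at 13.75, 11.51 and 12.79 in group C, against 13.48, 13.25, 13.74, 13.33 and 13.54 in controls, so replicates 2 and 3 were low and replicate 1 lay just above them. A second Cyp1a2 probe (ILMN_2739847) had a log2 ratio of −0.93 in group C (adjusted p = 0.233), which was −0.46 without replicate 2. The female-predominant Cyp2b13 and Cyp2b9 were at 11.03 and 11.59 in replicate 2 of group C, against 12.76 to 13.19 and 12.17 to 12.92 in controls. Cyp2c55, a CAR- and PXR-responsive gene, was at 8.02, 5.92 and 7.93 in group C, against 7.06 to 9.73 in controls, and overlapped them. In the other direction, the 3 probes of Cyp3a13, which is detected in several tissues, read 11.97, 11.11 and 7.76 in that liver, above each control.

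Cyp2c37 and Cyp2c50 were each below every control in all 3 livers of group C with 1 of their probes. Such a lack of overlap was found for 7.32% of the member probes and 6.55% of all probes in this comparison, so it was about as frequent among the members. Cyp2c37 (ILMN_2691059) was at 14.47, 14.34 and 14.45 in group C, against 14.75, 14.75, 14.84, 14.58 and 14.82 in controls (log2 ratio −0.33, adjusted p = 0.234). Another of its probes, ILMN_2691060, read 14.62, 14.51 and 14.60 and overlapped the controls at 14.52 to 14.71. Cyp2c50 (ILMN_2996640) was at 14.48, 14.47 and 14.45 in group C, against 14.62 to 14.78 in controls. Cyp2c67 had a log2 ratio of −0.74 (ILMN_3153624, adjusted p = 0.224) and −0.51 (ILMN_3074610, adjusted p = 0.232). The count of 13 member probes in group C was 6 without replicate 2, and 8 without control 1 or control 5.

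Values that moved beside these P450 levels were recorded. Cdkn1a, a p53 target, was at 7.61, 9.53 and 8.39 in livers of group C, against 4.66 to 6.08 in controls, highest in replicate 2. Dbp, a clock output factor that drives several P450 genes, was at 13.10, 11.42 and 12.77 in group C, against 12.64 to 13.16 in controls, and was lowest in the same liver. Their part in the P450 levels was not tested. The hepatocyte markers summed to 17.09 to 17.15 in group C, against 17.06 to 17.19 in controls, and the mRNA of CAR (Nr1i3) had a log2 ratio of 0.22 in group C (adjusted p = 0.571).

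Partners of the P450s showed no called change in liver. Of 14 redox partner and heme supply genes, 11 were detected, the probe for the oxidoreductase Por not among them, and 0 passed the thresholds in group A, B or C, with 1, 0 and 2 at an unadjusted p below 0.05. Alas1, the first enzyme of heme synthesis, averaged 14.75 in group C and 14.26 in controls (log2 ratio 0.48, adjusted p = 0.243). Hmox1, which breaks heme down, averaged 7.11 in group C and 6.10 in controls (log2 ratio 1.01, adjusted p = 0.231). None of the 12 detected of 16 regulator genes and none of the 20 detected of 28 conjugation genes passed in liver with limma. At an unadjusted p below 0.05, group C had 3 regulators (2 higher, 1 lower) and 2 conjugation genes (1 higher, 1 lower).

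Kidney medulla held the member closest to the thresholds. Of all 12296 probes tested, 1.39%, 1.78% and 0.13% passed them in groups A, B and C, and 0 of the 19 member probes did. Cyp1b1 had levels of 9.41, 9.20 and 9.53 in group A, 8.97, 9.83 and 9.42 in those of group B and 9.59, 10.26 and 9.00 in those of group C, against 8.48, 8.10, 8.10, 8.29 and 8.52 in controls. All irradiated medullas lay above all controls, those outside the field in group A included. Lack of overlap was common in this tissue, with 10.5%, 10.5% and 26.3% of the member probes wholly outside the control range in groups A, B and C, against 22.6%, 24.3% and 12.3% of all probes. The log2 ratio was 1.08, 1.11 and 1.32 in groups A, B and C (SE 0.247 each), with limma adjusted p = 0.0192, 0.0181 and 0.0192, above the threshold of 0.01. Fitted with the controls alone, groups A and B passed, at adjusted p = 0.00161 and 0.00533, and group C passed without replicate 3 (log2 ratio 1.63, adjusted p = 0.000757). In kidney cortex, Cyp1b1 was at 9.13, 8.45 and 8.15 in group A, 8.20, 8.50 and 9.10 in those of group B and 9.47, 8.89 and 9.77 in those of group C, against 8.40 to 9.30 in controls, and the groups overlapped. Whether the medulla and the cortex differed in this response was not tested.

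**Figure D4:**
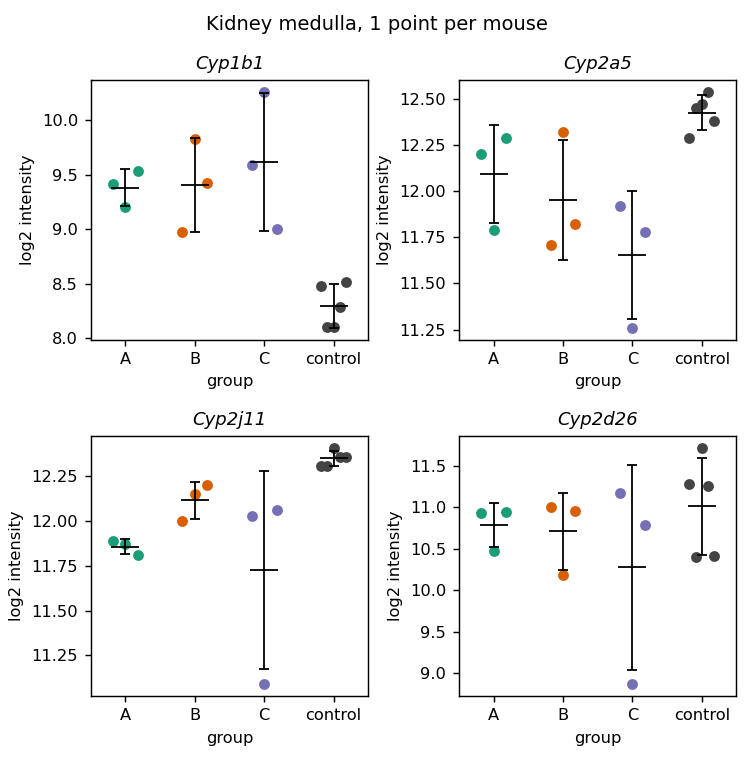
Log2 intensity in kidney medulla of each mouse (points) for 4 P450 genes in groups A, B, C and controls, with bars for mean ± SD (n = 3, 3, 3 and 5). Cyp1b1 lies above the controls (8.10 to 8.52) in each irradiated mouse, and Cyp2a5 and Cyp2j11 lie below them in group C.

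At an unadjusted p below 0.05, 2 member probes stood out in medulla of group A (1 higher, 1 lower) beside 23.6% of all probes, 4 in group B (1 higher, 3 lower) beside 22.8%, and 10 in group C (2 higher, 8 lower) beside 26.6%. These were 10.5%, 21.1% and 52.6% of the member probes, and 13.6% of all probes were lower in group C. The share in group B was near that of all probes, and its count of 4 was 8 when group B was fitted alone with controls and 1 without replicate 3. The count of 10 in group C was 5 of the 19 probes without replicate 2. The 8 lower probes read Cyp2a5 (4 probes), Cyp2d26 (2 of its 3 probes) and Cyp2j11 (2 probes), and the second higher one beside Cyp1b1 read Cyp2d9 (log2 ratio 0.69, adjusted p = 0.17). The median log2 ratio of the members was −0.23, −0.30 and −0.50 in groups A, B and C, beside −0.05, −0.05 and −0.02 over all probes.

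Cyp2a5, the coumarin 7-hydroxylase of mice, was read by 4 probes. ILMN_3159131 gave 12.20, 11.79 and 12.29 in group A, 11.71, 12.32 and 11.82 in those of group B and 11.92, 11.26 and 11.78 in those of group C, against 12.29, 12.45, 12.47, 12.54 and 12.38 in controls. Group C lay below every control, while groups A and B each reached the lowest control. The log2 ratio in group C was −0.77 (SE 0.178, adjusted p = 0.0373) with this probe, −0.92 with ILMN_2734598 (adjusted p = 0.0196), −0.90 with ILMN_1229267 (adjusted p = 0.0225) and −0.56 with ILMN_3079804 (adjusted p = 0.147), the last overlapping the controls. Without replicate 3 of group C, the value of ILMN_2734598 was −1.04 and passed (adjusted p = 0.0035). Its close paralog Cyp2a4 could share some of these probes.

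Cyp2j11 (ILMN_2800986) was at 11.89, 11.87 and 11.81 in group A, 12.00, 12.15 and 12.20 in those of group B and 12.03, 11.09 and 12.06 in those of group C, against 12.31, 12.31, 12.41, 12.36 and 12.36 in controls, so every irradiated medulla lay below the tightly grouped controls. The log2 ratio was −0.50 in group A (adjusted p = 0.112) and −0.62 in medullas of group C (adjusted p = 0.0632), and −0.31 in group C without replicate 2. A second probe of Cyp2j11 (ILMN_1258039) overlapped the controls in each group, at 11.31 to 11.81 in groups A and B and at 11.49, 10.60 and 11.57 in group C, against 11.52 to 11.80 in controls.

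Replicate 2 of group C was the lowest medulla for several members. The labels do not say whether it came from the same mouse as the liver of that number. Cyp2d26 (ILMN_2704777) read 10.93, 10.48 and 10.95 in group A, 11.00, 10.18 and 10.96 in those of group B and 11.17, 8.87 and 10.79 in those of group C, against 11.28, 10.40, 11.72, 11.26 and 10.41 in controls. Apart from that replicate, the groups overlapped the controls widely. The same medulla had 7.15 for Cyp2d10, 5.41 for Cyp2d12 and 6.63 for Cyp2j9, below each control, and 9.75 for Cyp2s1, above each control. Without control 1, 3 or 4, the count of 10 was 6.

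Proximal tubule markers were set beside these values. Their sum, over the 7 of 8 genes on the array, was 14.80 to 15.87 in medulla of group C, against 15.57 to 16.05 in controls. The groups thus overlapped, and 2 of the 7 genes were lower at an unadjusted p below 0.05. Acute phase markers summed to as much as 13.54 in group C, against 10.15 to 10.40 in controls. Lcn2, an injury and acute phase marker, was at 8.32, 13.00 and 8.81 in group C, against 8.24 to 8.97 in controls, and Dbp was at 13.01, 11.23 and 12.78, against 12.76 to 13.03 in controls, with replicate 2 apart at both. Alveolar epithelium markers, with all tissues normalized together, summed to 6.99 to 11.39 in irradiated medullas, against 7.07 to 7.29 in control medullas. Of these 5 markers, 1 was detected in medulla by the rule above. The part of these genes and of lung tissue in the P450 values was not tested. Other dioxin receptor targets were detected in medulla for 4 of 5 genes, of which 0 passed the thresholds in any group with limma and 0, 0 and 1 were higher at an unadjusted p below 0.05 in groups A, B and C.

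In kidney cortex, 0 of 20 member probes passed the thresholds, as did 0%, 0% and 0% of all 12527 probes in groups A, B and C. At an unadjusted p below 0.05, 1 member probe was higher in group A beside 7.76% of all probes, 5 were lower in group B beside 13.9% (8.21% lower), and 2 were lower in group C beside 8.6%. All 5 probes in group B read Cyp2a5 or Cyp2d26. ILMN_2734598 for Cyp2a5 gave 8.89, 11.21 and 10.95 in group B, against 11.37, 11.70, 11.09, 11.53 and 11.52 in controls, with replicate 1 far below the rest (log2 ratio −1.09, adjusted p = 0.283, and −0.36 without replicate 1). Yet the brightest Cyp2a5 probe, ILMN_3159131, read 12.68, 13.02 and 12.70 in group B, against 12.72 to 13.42 in controls, and did not set replicate 1 apart. Cyp2d26 behaved alike: replicate 1 was at 8.42 and 8.55 with 2 probes and at 12.04 with the brightest (ILMN_2704777), where group B gave 12.04, 12.31 and 12.09, against 12.13 to 12.53 in controls. Probes annotated to the same gene thus disagreed within this library, and the count of 5 was 1 without it.

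Cyp2d12 was the member probe higher in cortex of group A, at 10.90, 10.17 and 9.47, against 9.41, 9.69, 9.15, 9.77 and 9.08 in controls, with replicate 3 among the controls (log2 ratio 0.76, adjusted p = 0.559). The sign of this ratio was opposite to that in liver of group A, and the difference between these tissues was not tested. Cyp2d10 was at 10.17, 10.13 and 10.14 in group B, below the controls at 10.48, 10.38, 10.90, 10.63 and 10.54 (log2 ratio −0.44, adjusted p = 0.372). In cortex, 0%, 5% and 0% of the member probes lay wholly outside the control range in groups A, B and C, beside 9.72%, 9.14% and 6.2% of all probes. Cyp2j11 (ILMN_2800986) was at 12.71, 12.36 and 11.58 in group C, against 12.39 to 12.91 in controls (log2 ratio −0.48, adjusted p = 0.571), and overlapped them. Cyp2d9 spread most, at 7.72, 6.12 and 9.04 in group C, against 4.81 to 8.08 in controls.

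In lungs, 15 member probes were tested and 0 passed the thresholds, beside 0%, 0.00749% and 0% of all 13356 probes in groups A, B and C. At an unadjusted p below 0.05, there were 0 member probes in group A beside 1.09% of all probes, 2 in group B (1 higher, 1 lower) beside 5.35%, and 1 in group C (higher) beside 5.95%. Cyp1b1 was at 7.40, 7.20 and 6.96 in group B, against 7.96, 8.09, 7.60, 7.68 and 7.98 in controls, without overlap (log2 ratio −0.68, SE 0.2, adjusted p = 0.774). Groups A and C, at 7.73, 8.00 and 8.28 and at 7.77, 8.15 and 8.55, overlapped the controls. The ubiquitous Cyp2d22 was at 9.97, 9.92 and 10.15 in group B and at 9.91, 9.91 and 10.10 in group C, above the controls at 9.58, 9.52, 9.86, 9.45 and 9.79 (log2 ratio 0.37 and 0.33, adjusted p = 0.9 and 0.806). Wholly outside the control range were 0%, 13.3% and 6.67% of the member probes in lungs of groups A, B and C, beside 1.33%, 4.02% and 3.59% of all probes.

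Cyp2f2 and Cyp2b10, both highest in lungs among liver, lungs and kidney, were compared next. Cyp2f2 was at 14.76, 14.83 and 14.92 in group A, 14.49, 14.85 and 14.56 in those of group B and 14.90, 14.64 and 14.60 in those of group C, against 14.75, 14.92, 14.79, 13.97 and 14.92 in controls. Cyp2b10 was at 13.06 to 13.44 in group A, 12.97 to 13.42 in group B and 13.04 to 13.57 in group C, against 12.91 to 13.33 in controls. Both genes overlapped the controls in each group, and some lungs of each group lay above the highest control for Cyp2b10. Cyp2f2 lay near the bright end of the lung arrays, where the highest probe read 14.97.

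**Figure D5:**
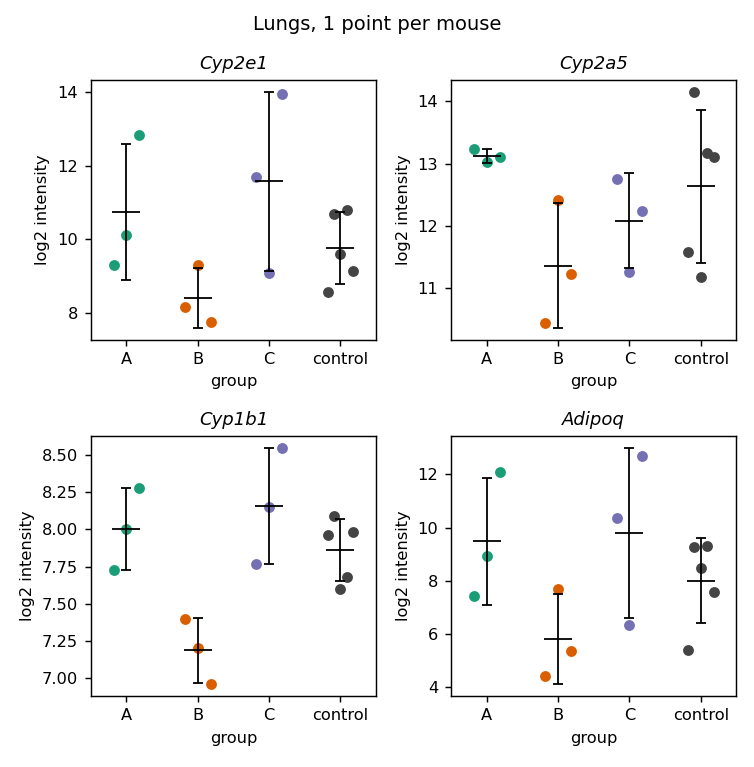
Log2 intensity in lungs of each mouse (points) for Cyp2e1, Cyp2a5, Cyp1b1 and the adipocyte gene Adipoq in groups A, B, C and controls, with bars for mean ± SD (n = 3, 3, 3 and 5). Cyp2e1 and Adipoq are both highest in replicate 3 of group C (13.97 and 12.67) and replicate 3 of group A (12.84 and 12.09).

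The widest spread in lungs belonged to Cyp2e1. Its levels were 9.30, 10.13 and 12.84 in group A, 8.15, 9.31 and 7.75 in those of group B and 11.69, 9.09 and 13.97 in those of group C, against 8.58, 10.70, 9.60, 10.80 and 9.13 in controls. Some lungs of groups A and C exceeded all controls, while group B reached below them (log2 ratio in group C 1.82, SE 0.959, adjusted p = 0.817). Adipoq, made by adipocytes, was at 7.44, 8.92 and 12.09 in group A, 4.42, 7.71 and 5.35 in those of group B and 10.37, 6.36 and 12.67 in those of group C, against 5.42, 9.28, 8.48, 9.30 and 7.58 in controls. The lungs with the highest Cyp2e1 were those with the highest Adipoq, and the part of fat tissue in the Cyp2e1 level was not tested. It was the only one detected in lungs of the 3 adipocyte markers on the array.

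Cyp2a5 (ILMN_3159131) was at 13.24, 13.03 and 13.10 in group A, 10.43, 12.42 and 11.22 in those of group B and 12.75, 11.25 and 12.24 in those of group C, against 11.58, 14.16, 11.17, 13.17 and 13.10 in controls, with a log2 ratio of −1.28 in group B (adjusted p = 0.918). The control lungs varied as widely as any group, and the groups overlapped them. The median log2 ratio of all member probes in lungs was 0.14, −0.52 and −0.04 in groups A, B and C, beside 0.01, 0.03 and 0.02 over all probes, and 4 of the 15 probes read Cyp2a5. Club cell markers summed to 15.02 to 15.08 in group B, against 15.21 to 15.55 in controls, and their part in these values was not tested. In lungs of group B the count of 2 was 7 without replicate 2, control 1 or control 3, and 1 without replicate 3.

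Irradiated groups were also compared directly with each other in each tissue, over 12 contrasts. No member probe passed the thresholds with limma, where 0% to 0.0188% of all probes did, and the smallest adjusted p was 0.181, in liver of group C against group A. At an unadjusted p below 0.05, liver had 2 member probes for group B against A, 9 for C against A and 12 for C against B, of 41 tested. Beside these stood 2.25%, 13.8% and 12.6% of all liver probes. Medulla had 0, 5 and 5 of 19 member probes, beside 3.29%, 7.54% and 7.91% of all probes. Cortex had 4, 5 and 2 of 20, beside 7.18%, 10.8% and 14.1%, and lungs had 6, 0 and 2 of 15, beside 4.29%, 4.86% and 3.5%. For group B against A, all 4 cortex probes read Cyp2a5. The 6 lung probes of that contrast read Cyp1b1, Cyp2e1, Cyp2d40 (not detected in lungs of group A) and Cyp2a5, the last with several probes. Probes of the same gene are not independent, so these counts are not counts of genes. The 3 mice per irradiated group limit the precision of every ratio here.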

How the data were processed

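Total RNA of 6 tissues from 14 mice was measured on 88 arrays, and groups were taken from the sample labels. The deposited table of non-normalized values held 1 intensity per probe and array, beside a detection p-value deposited with it. The authors' second set of intensity values was quantile-normalized in the BioArray Software Environment and served as an alternative. Intensities were background-corrected with the nec function of limma 3.58.1 (R 4.3.3, offset 16), quantile-normalized within each tissue for irradiation and over all arrays for the tissue pattern, and log2-transformed. Values therefore differ slightly between both uses. Where 1 tissue of 1 mouse had 3 arrays (a liver of group A and a control thyroid), these were averaged, so that n counts mice. Probes with a detection p below 0.01 on 3 or more arrays of a tissue entered the test by lmFit and eBayes, with all groups of a tissue in 1 fit and Benjamini-Hochberg adjustment over all probes. Calls required an adjusted p below 0.01 and a log2 ratio of at least 0.58, the study's thresholds. Named genes were members past the thresholds, otherwise the 6 member probes with the smallest p per comparison, the 6 with the largest tissue differences each way and genes detected in all 4 tissues. Other members named for single libraries were picked by value. The members and lists were chosen with earlier results of these data known. Summed marker levels are log2 of summed intensities. Per the methods, RNA integrity numbers were at least 6.0. Slide and scan date were not given in the sources used here, so a batch could not be tested. The replicate labels do not say that the same number marks the same mouse. The tests were tried on simulated data first. Alternatives were other normalizations, filters and fits, and leaving out each mouse.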

Additional observations from a re-analysis of the deposited data

Results flagged for a closer look

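Among 49 sets of 5 control values tested, 5 held a value that lay far from the other 4 relative to their range, and chance flags about 1 in 20 such sets. In control livers, Cyp3a11 was at 11.71 in control 4 against a next value of 13.71, Cyp2c67 (ILMN_3074610) at 13.09 in control 1 against 12.73, and Cyp2c37 (ILMN_2894828) at 10.86 in control 5 against 10.50. In control lungs, Cyp2f2 was at 13.97 in control 4 against 14.75. In control kidney cortex, Cyp2d40 was at 7.63 in control 1 against 7.10. Direct differences between irradiated groups gave 0 flags.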

How the results depend on the processing

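The 16 counts of called P450 probes (12 for irradiation, 4 for tissues) stayed within 1.5 times the reported count with the authors' normalized values, without background correction and without the detection filter. So did the 12 irradiation counts with quantile normalization over all arrays and with a trend and robust fit, the 4 tissue counts with median scaling and with only the tissues compared, and the 3 liver counts with the first array only. With only the group and the controls in the fit, medulla of groups A and B had 1 called probe each (Cyp1b1, log2 ratio 1.08 and 1.11) where the reported count was 0. Leaving out each mouse in turn gave 0 to 1 called probes in liver of group C (1 without replicate 1, Cyp2b10), 0 to 2 in medulla of group C (2 without replicate 3, Cyp1b1 and Cyp2a5), and 0 in the other 10 irradiation comparisons. For tissues of controls it gave 5 to 10 for cortex against medulla (5 without control medulla 2), 43 to 44 for liver against lungs, 44 to 44 for liver against cortex and 18 to 20 for lungs against cortex. With median scaling, Cyp2j9 passed for liver against cortex (difference −0.81, where −0.42 was reported).

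Counts at an unadjusted p below 0.05, added after the data were seen, ranged without single mice from 1 to 5 in liver of group A (2 without replicate 1, 1 without replicate 2), 1 to 2 in group B and 6 to 16 in group C. They ranged from 1 to 7 and 0 to 2 in lungs of groups B and C, from 1 to 6 and 0 to 4 in cortex of groups B and C, and from 2 to 4, 1 to 6 and 5 to 12 in medulla of groups A, B and C. With the authors' normalized values this count was 7 in liver of group A, where 4 was reported. With only the group and the controls it was 4 in liver of group B, where 1 was reported, and 8 in medulla of group B, where 4 was reported. Without the detection filter it was 4 and 8 in cortex of groups A and B, where 1 and 5 were reported.

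With the replicate number as a block, all 12 irradiation counts were 0, and the tissue counts were 44 for liver against cortex, 43 for liver against lungs, 18 for lungs against cortex and 10 for cortex against medulla, where 9 was reported. At an unadjusted p below 0.05 the block gave 8 probes in liver of group C, 3 and 0 in cortex of groups B and C and 4 in medulla of group A, where 13, 5, 2 and 2 were reported. Whether the numbers pair the samples was not settled: deviations of same-numbered control cortex and medulla correlated at r = 0.105 to 0.291 in replicates 2 to 5 and at −0.00809 in replicate 1. With 3 mice against 5, small ratios cannot be detected.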
